A study of Mus musculus with 6 samples.

Results

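The mitochondrial protein import machinery was examined in visceral fat of obese mice, the epididymal white adipose tissue (eWAT), after transfer of Lmo3 or a control transgene. Its members were every gene whose single annotated symbol starts with Timm or Tomm and a digit, together with Pmpca, Pmpcb, Samm50, Mtx1, Mtx2, Grpel1, Chchd4, Gfer, Pam16 and Dnlz. No measured difference entered that rule, which found 34 of the 19938 genes on the array. The probe set annotated to Timm10b also carries the symbol Dnhd1, so Timm10b is not among them. Male C57BL6/J mice were placed on a high-fat diet at 6 weeks of age and kept on it for 12 weeks. After a first period of that diet both groups were injected bilaterally into eWAT with a recombinant adeno-associated virus (rAAV) of the hybrid serotype Rec2, which carried YFP, a fluorescent protein, in the control group (rAAV-YFP) and Lmo3, a LIM-domain transcriptional cofactor, in the other (rAAV-Lmo3). Each group had 3 arrays with the RNA of a separate pool of 2 mice on each. The transgenes were driven by a CMV enhancer and chicken β-actin promoter, which is not restricted to adipocytes, and whole tissue was profiled. Part of the sample labels name LacZ instead of YFP as the control transgene.

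Nearly all mitochondrial proteins are encoded in the nucleus, made in the cytosol and imported. The TOM complex of the outer membrane is the common gate, from which the SAM complex inserts barrel proteins, the MIA disulfide relay folds cysteine-rich proteins of the intermembrane space, the small TIM chaperones and TIM22 deliver carriers to the inner membrane, and TIM23 passes precursors with a cleavable presequence to the matrix. There the PAM motor, built around mitochondrial Hsp70, pulls the precursor in and the processing peptidase MPP removes the presequence. White adipocytes hold fewer mitochondria than brown adipocytes, and they depend on imported enzymes for fatty acid oxidation, the TCA cycle and the citrate export that feeds lipid synthesis.

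All values below are RMA intensities or their log2, and a difference is always the rAAV-Lmo3 mean minus the rAAV-YFP mean on the log2 scale. Median intensities of the arrays lay between 123 and 127.5. Arrays rAAV-YFP 2 and rAAV-Lmo3 1 had the lowest mean correlation with the other arrays over the genes tested, 0.962 and 0.959, against 0.973 to 0.977 for the remaining 4. Lmo3 read 25, 24 and 24 in controls and 24, 26 and 24 in rAAV-Lmo3 tissue (exact two-sided permutation p = 1). These values lie under the limit for dim genes, so this probe set gave no check of the labels. Adipocyte markers were bright on every array, Adipoq between 8014 and 10809 and Plin1 between 4047 and 5667, and all 5 epididymal duct markers on the array were too dim to test. In whole tissue, fewer cells of a type and less RNA per cell cannot be told apart.

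Of the 34 import genes 32 passed the filter on dim genes (a mean intensity of 114 over all 6 arrays), and only Timm8a2 and Tomm20l did not. In rAAV-Lmo3 eWAT 29 of the 32 tested import genes, or 90.6%, lay above their control mean, against 50.3% of all 11963 genes tested. The median difference was 0.18, which is 1.13-fold, against 0.001 for all genes, and it ranged from -0.13 for Tomm34 to 0.55 for Timm8a1. The differences were thus small, and only 8 members were 1.2-fold or more higher. By limma 0 import genes reached an adjusted p under 0.05, as did 0% of all genes, and the smallest adjusted p among members was 0.97 (0.669 among all genes). At an unadjusted p under 0.05, 4 members were higher (12.5%, against 2.27% of all genes tested) and 0 were lower (against 2.4%). These 4 were the intermembrane space chaperones Timm8a1 and Timm9, the metaxin Mtx2 and the motor cofactor Grpel1. By the methods' t-test 5 members were higher at that level (against 1.95% of all genes higher and 2.69% lower), and 0 passed after adjustment. The 3 control and 3 rAAV-Lmo3 values did not overlap for 11 members (34.4%), all of them higher, where 4.53% of all genes were higher and 5.95% lower without overlap. With 3 arrays against 3 an exact permutation p cannot fall below 0.1 for any single gene.

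**Figure D1:**
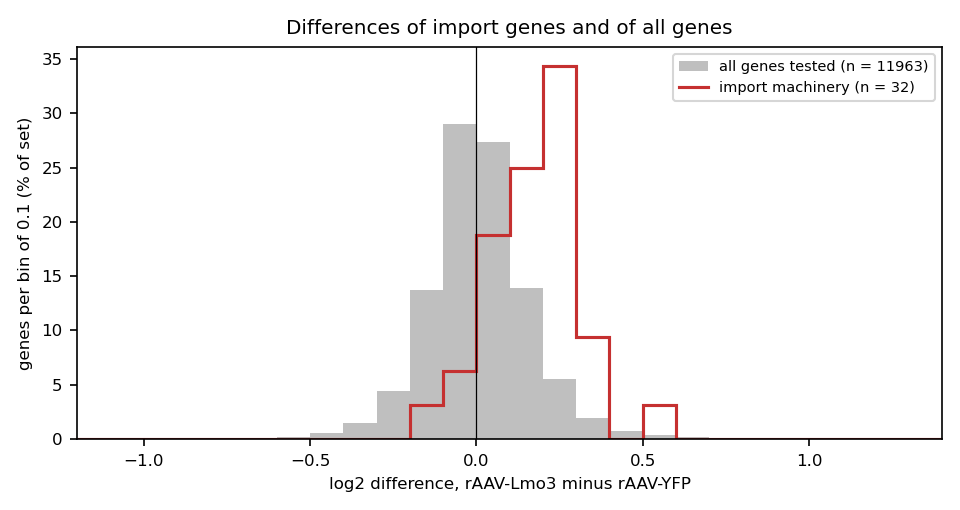
Distribution of the log2 difference, rAAV-Lmo3 minus rAAV-YFP (horizontal axis, bins of 0.1), for the 32 tested import genes (red outline) and for all 11963 genes tested (grey), each as a percentage of its set on the vertical axis. The import genes sit to the right of 0 with a median of 0.18, and 3 of them lie below 0.

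The size of these differences depended on array rAAV-Lmo3 1. It gave the highest of the 6 values for 25 of the 32 members (78.1%, against 26% of all genes tested), and rAAV-YFP 1 gave the lowest for 17 (53.1%, against 17%). Averaged over the 32 members, the centred log2 intensity was -0.14, -0.09 and -0.03 in the control pools, against 0.24, -0.02 and 0.04 in rAAV-Lmo3 tissue. The groups did not overlap in this average, but rAAV-Lmo3 2 lay just above rAAV-YFP 3. Without rAAV-Lmo3 1 the median difference was 0.10, with 26 of 32 members above 0 (81.2%, against 50.7% of all genes). For 13 of the 29 members above 0 the difference lost at least 50% of its size. Without both arrays that stood apart the median was also 0.10, with 29 of 32 above 0 (against 47.8% of all genes). Then 14 members were higher and 2, Samm50 and Tomm34, were lower with groups that did not overlap. With 2 arrays against 2 that was so for 13.4% and 16.7% of all genes. No matter which single array was left out, 25 members kept a difference above 0.

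**Figure D2:**
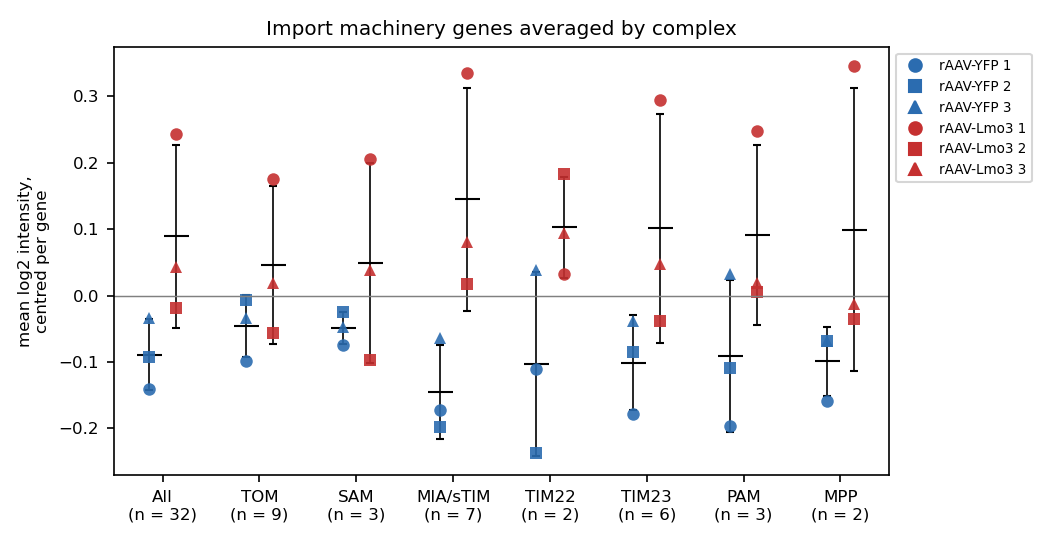
Mean log2 intensity, centred per gene (vertical axis, log2 units), of all tested import genes and of each import complex on every array (symbols; blue, rAAV-YFP; red, rAAV-Lmo3), with the group mean ± SD (black, n = 3 arrays) and the number of genes under each label (MIA/sTIM, disulfide relay and small TIM chaperones). Array rAAV-Lmo3 1 has the highest average for every complex except TIM22, where rAAV-Lmo3 2 leads with 0.18.

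The intermembrane space branch had the largest median difference of the 7 functional groups, 0.27, and all 7 of its tested members lay above 0. Without rAAV-Lmo3 1 its median was 0.11 with 6 of 7 above 0, and the median of TIM22, 0.24, was then the largest. Timm8a1, which forms a chaperone hexamer with Timm13 and whose human counterpart is lost in deafness-dystonia syndrome, read 196, 152 and 226 in controls and 262, 268 and 303 in rAAV-Lmo3 tissue. All rAAV-Lmo3 values lay above all control values, and the widest spread was in the controls, where rAAV-YFP 2 was low. Its mean log2 intensity was 7.56 ± 0.29 in controls and 8.11 ± 0.11 in rAAV-Lmo3 tissue (SD, 3 pools each). The difference was 0.55 ± 0.15 (SE; limma adjusted p = 0.97), or 1.47-fold. A second probe set of Timm8a1 gave 0.54. This was also the 1 member whose unadjusted p stayed under 0.05 whichever single array was left out, with differences from 0.40 (without rAAV-YFP 2) to 0.68. Leaving out rAAV-Lmo3 1 raised it to 0.59.

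Timm9, which assembles with Timm10 into the chaperone that carries hydrophobic precursors across the intermembrane space, read 149, 146 and 156 in controls and 191, 168 and 185 in rAAV-Lmo3 tissue. The values were close within each group and did not overlap. Its difference was 0.27 ± 0.08 (limma adjusted p = 0.97), and 0.23 to 0.32 when single arrays were left out. Timm9 did not pass the unadjusted level without rAAV-Lmo3 3 or without both arrays that stood apart. Its partner Timm10 read 224, 233 and 229 against 398, 246 and 242. These groups did not overlap either, but the difference of 0.33 ± 0.19 rested on rAAV-Lmo3 1, without which it was 0.09.

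Chchd4, the oxidoreductase that passes disulfide bonds to incoming proteins, read 189, 145 and 191 in controls and 227, 195 and 220 in rAAV-Lmo3 tissue. The groups were separated by 191 against 195, and the low control was again rAAV-YFP 2. The difference was 0.30 ± 0.13 (limma adjusted p = 0.97), or 0.17 without rAAV-YFP 2. Gfer, the sulfhydryl oxidase that recharges Chchd4, differed by 0.26 ± 0.15 with overlapping groups and by 0.11 without rAAV-Lmo3 1. Timm8b (0.24 ± 0.15) and Timm13 (0.07 ± 0.10) overlapped as well, and they were at 0.09 and -0.01 without rAAV-Lmo3 1. Timm8a2 read 25 to 27 on all arrays.

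The TIM22 translocase, which inserts carriers, was the 1 complex in which rAAV-Lmo3 1 was not the highest array. Timm22, its channel subunit, read 217, 167 and 225 in controls and 216, 256 and 246 in rAAV-Lmo3 tissue. Here rAAV-Lmo3 1 lay within the controls and the other rAAV-Lmo3 arrays lay above them, so the difference of 0.25 ± 0.14 became 0.32 without rAAV-Lmo3 1 and 0.11 without rAAV-YFP 2. Timm29, a structural partner of Timm22, differed by 0.17 ± 0.09, by 0.16 without rAAV-Lmo3 1 and by 0.10 without rAAV-YFP 1.

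For the TIM23 translocase all 6 members lay above 0, with a median of 0.22, or 0.10 without rAAV-Lmo3 1, and 3 had groups that did not overlap. Timm44, which tethers the Hsp70 motor to the channel, read 436, 503 and 500 in controls and 623, 518 and 568 in rAAV-Lmo3 tissue, a difference of 0.25 ± 0.10. It lay just outside the unadjusted level and was 0.18 without rAAV-YFP 1 and also 0.18 without rAAV-Lmo3 1. Timm23, the channel subunit, read 2507, 2504 and 2643 against 2895, 2656 and 2803, a difference of 0.13 ± 0.08. The highest control lay under the lowest rAAV-Lmo3 value, but after a second quantile normalization the groups overlapped and the difference was 0.07. Timm23 has 4 probe sets annotated with the same transcripts, of which a pair held identical values on every array, and they gave differences of 0.13 to 0.15. Timm17b, a paralog of the channel partner Timm17a, read 350, 358 and 380 against 400, 381 and 399, a difference of 0.12 ± 0.07. Its groups did not overlap either, with only 380 against 381 between them. By the methods' t-test Timm23 and Timm17b passed the unadjusted level, which they did not by limma.

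The other members of TIM23 overlapped between the groups. Timm17a differed by 0.21 ± 0.11, with 0.17 from its second probe set and 0.12 without rAAV-Lmo3 1. The presequence receptor Timm50 (0.27 ± 0.18) and the assembly factor Timm21 (0.24 ± 0.17) rested on rAAV-Lmo3 1, since their differences were 0.08 and 0.04 without it.

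In the import motor, Grpel1, the nucleotide exchange factor of mitochondrial Hsp70, read 661, 669 and 667 in controls and 991, 727 and 769 in rAAV-Lmo3 tissue. The controls were nearly identical and all rAAV-Lmo3 values lay above them, the one of rAAV-Lmo3 1 far above. Its difference was 0.30 ± 0.13 (limma adjusted p = 0.97), and 0.17 without rAAV-Lmo3 1. Grpel1 was at the edge of the unadjusted level, which it passed only without rAAV-Lmo3 2 among the fits that left out 1 array. Pam16, which restrains the J-protein of the motor, read 534, 551 and 650 against 716, 623 and 635. The groups overlapped, the difference was 0.19 ± 0.11, and the second probe set of Pam16 gave 0.10. Dnlz, a zinc-finger escort of mitochondrial Hsp70, differed by 0.05 ± 0.11, and was at -0.04 without rAAV-YFP 1 and 0.02 without rAAV-Lmo3 1.

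The subunits of the matrix peptidase MPP gave unequal differences. Pmpca, its substrate-binding subunit, read 882, 877 and 966 in controls and 1020, 929 and 901 in rAAV-Lmo3 tissue, a difference of 0.06 ± 0.09 with overlapping groups, or 0.01 without rAAV-Lmo3 1. Pmpcb, its catalytic subunit, read 585, 667 and 605 against 1018, 660 and 702 and differed by 0.33 ± 0.17, or by 0.14 without rAAV-Lmo3 1. The log2 ratio of Pmpca to Pmpcb was lower by 0.27 ± 0.17 (SE) in rAAV-Lmo3 tissue, which did not pass an exact permutation test (p = 0.2, adjusted p = 0.7). Ratios within an array were compared in the same way for 7 pairs of related members, and 0 passed. They were Timm8a1 with Timm8b (difference of the log2 ratio 0.31 ± 0.29), Timm9 with Timm10 (-0.06 ± 0.21), Chchd4 with Gfer (0.04 ± 0.20), Timm17a with Timm17b (0.09 ± 0.08), Tomm40 with Tomm40l (0.02 ± 0.08), Mtx1 with Mtx2 (-0.17 ± 0.18) and the pair of MPP subunits. The smallest p of these tests was 0.2, and 0.1 is the lowest that this design allows.

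The TOM complex had the smallest differences of the larger groups, with a median of 0.12, 7 of 9 members above 0 and 0 passing at the unadjusted level. The 9 include Tomm34, which is a cytosolic cochaperone and lay below 0. Without rAAV-Lmo3 1 the median was 0.01, with 6 of 9 above 0. Tomm22, the central receptor, read 483, 502 and 549 in controls and 604, 552 and 573 in rAAV-Lmo3 tissue. Its groups did not overlap and it differed by 0.17 ± 0.08. Tomm70a, the receptor for carriers and chaperone-bound precursors, read 971, 874 and 922 against 1092, 972 and 1003, a difference of 0.15 ± 0.08. The margin between its groups was again narrow, 971 against 972, and the difference was 0.06 without both arrays that stood apart. The presequence receptor Tomm20 differed by 0.25 ± 0.13 (0.27 in its second probe set), and by 0.13 without rAAV-Lmo3 1. Tomm40, the pore itself, read 643, 647 and 638 in controls and 761, 642 and 652 in rAAV-Lmo3 tissue. Apart from rAAV-Lmo3 1 the values were almost equal, so its difference of 0.09 ± 0.09 became 0.01 without that array.

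Among the small TOM subunits, Tomm5 (0.12 ± 0.12) and Tomm7 (0.16 ± 0.21) were above 0 and Tomm6 (-0.05 ± 0.10) below, and without rAAV-Lmo3 1 Tomm5 was at 0.01 and Tomm7 at -0.04. Tomm6 was at 0.02 without rAAV-YFP 2. The pore paralog Tomm40l differed by 0.07 ± 0.08, and by 0.04 without rAAV-YFP 1. Tomm34, a cytosolic cochaperone for precursors, had the lowest difference of all members, -0.13 ± 0.08, and lay below 0 whichever array was left out (-0.19 to -0.08). Tomm20l, a paralog of Tomm20, read 84 to 90 on all arrays and was not tested.

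The SAM complex was mixed. Mtx2, a metaxin of its cytosolic face, read 672, 647 and 707 in controls and 767, 774 and 877 in rAAV-Lmo3 tissue. Its groups were well apart, and rAAV-Lmo3 1 was the lowest of its group. The difference was 0.25 ± 0.09 (limma adjusted p = 0.97), between 0.19 and 0.29 when single arrays were left out. It no longer passed the unadjusted level without rAAV-YFP 1, rAAV-YFP 2 or rAAV-Lmo3 3. Samm50, the barrel at the core of the complex, read 727, 700 and 688 against 844, 573 and 655 and differed by -0.05 ± 0.14. Its rAAV-Lmo3 values lay on both sides of the controls, and without rAAV-Lmo3 1 the difference was -0.20. Mtx1 differed by 0.09 ± 0.13, and by -0.03 without rAAV-Lmo3 1.

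**Figure D3:**
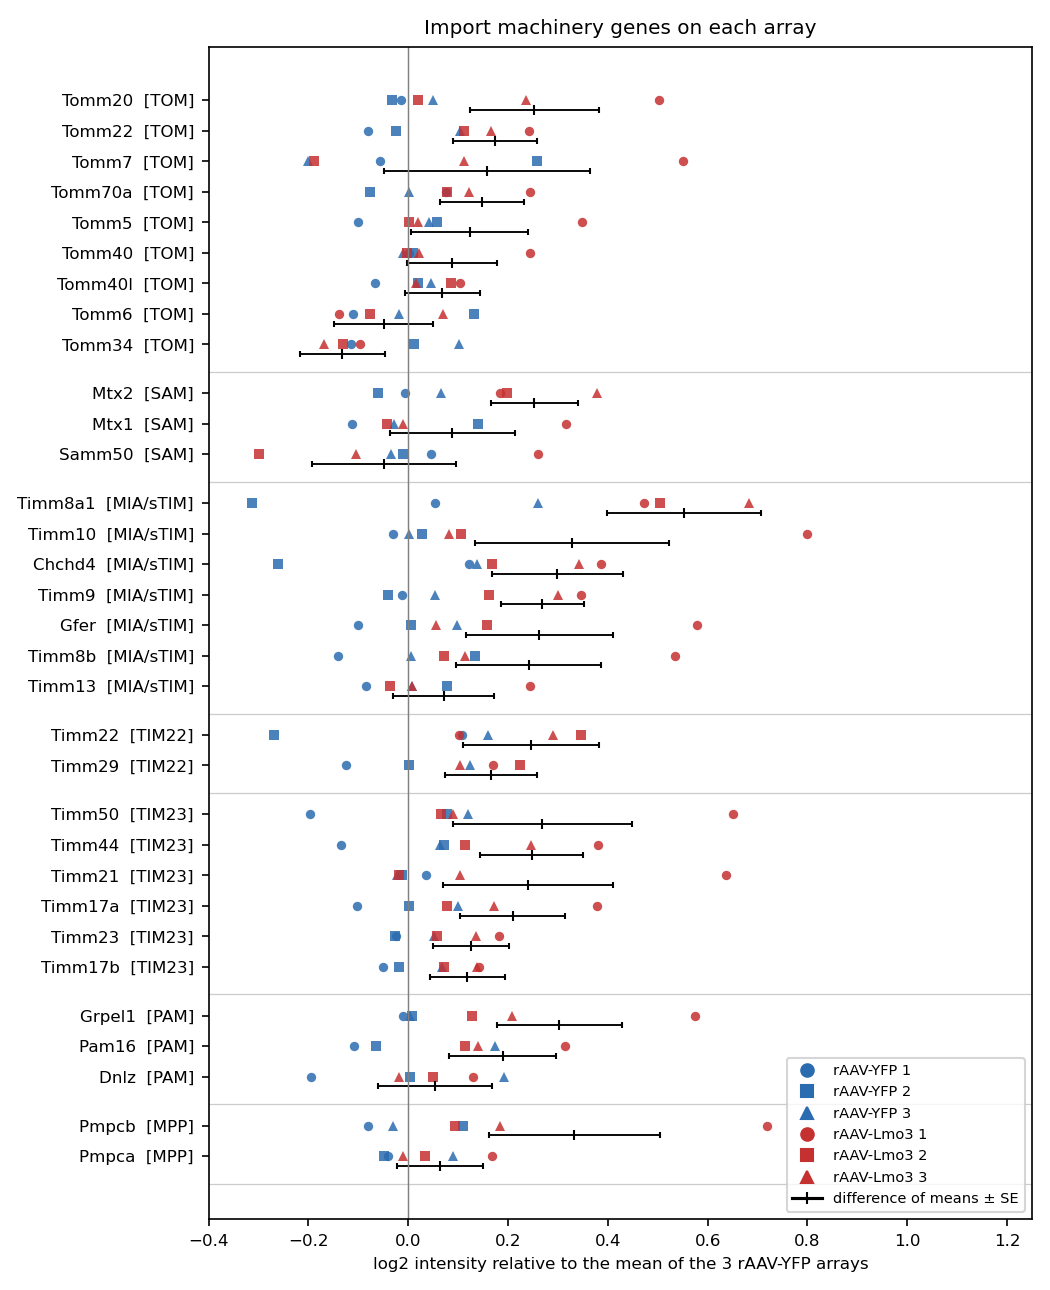
Log2 intensity of the 32 tested import genes on each array, set against the average control (horizontal axis, log2 units, with 0 at the mean of 3 rAAV-YFP pools). Each row is 1 gene, its complex in brackets (MIA/sTIM, disulfide relay and small TIM chaperones); controls are blue, rAAV-Lmo3 pools red, and black marks give the limma difference with its SE. The red circles of rAAV-Lmo3 1 lie farthest right for 25 genes, while for Timm8a1 and Mtx2 the other rAAV-Lmo3 arrays lie as far or farther.

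**Figure D4:**
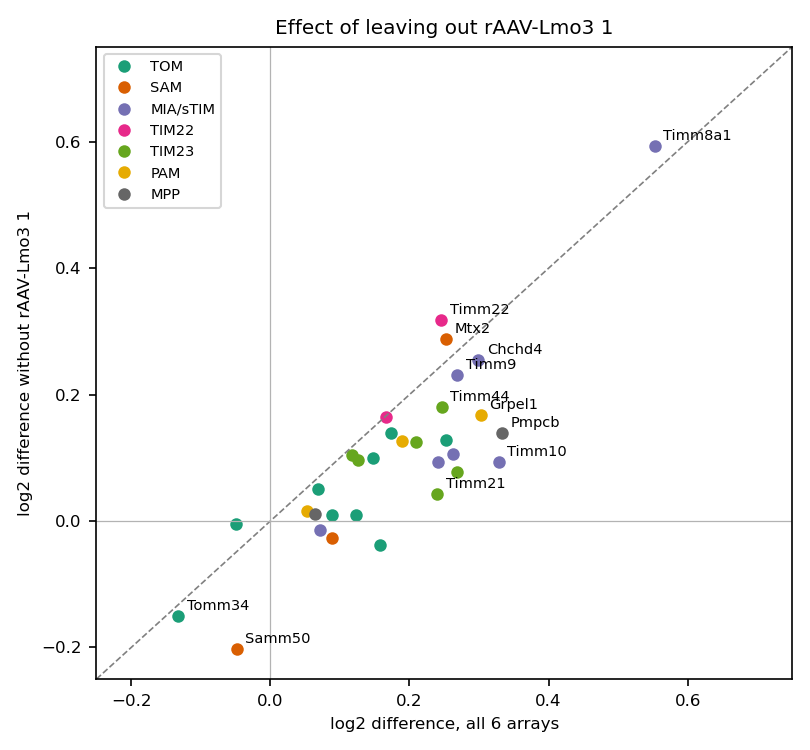
Log2 difference, rAAV-Lmo3 minus rAAV-YFP, of each tested import gene with all 6 arrays (horizontal axis) and without rAAV-Lmo3 1 (vertical axis), coloured by complex, with equal values on the dashed line. Timm8a1 (0.55 and 0.59), Mtx2 (0.25 and 0.29) and Timm22 (0.25 and 0.32) lie above the line, whereas Timm10 (0.33 and 0.09) and Timm21 (0.24 and 0.04) lie far below it.

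The promoters of the import genes were read to see which short motifs they share. RefSeq promoters (GRCm38.p6, 250 bases before to 50 after a gene start) were held for 31 of the 34 members and for 29 of the 32 tested. Both strands were searched for CCGGAAG, a core of ETS factors such as GABPA, GCGCANGCG for NRF1, TCAAGGTCA for estrogen-related receptors, AAGATGGC for YY1 and CACGTG, the E-box. The ETS and YY1 motifs can overlap, as they share the letters AAG. The ETS motif was present in 13 of the 29 tested members (44.8%), against 18.9% of the 9544 tested genes with a promoter. The other shares were 17.2% against 14.6% for NRF1, 6.9% against 5.14% for YY1 and 13.8% against 11.6% for the E-box. The receptor motif was found in 1 member, Timm8b (3.45%, against 0.356%). The median difference was 0.17 in the 13 members with the ETS motif and 0.23 in the 16 without, against 0.02 and -0.003 for all tested genes with and without it. It occurred in 6 of the 11 members whose groups did not overlap and in 7 of the 18 others. Those 6 are printed below from the strand of the gene, 5′ to 3′, upstream of the gene start only, with the matches in capitals. Overlapping matches in Tomm22 form 1 palindrome. The E-box stretches of Timm8a1 and Timm9, the members with the smallest p, are printed with them, as neither holds the ETS motif. They were chosen after the values were seen, and the E-box share of the members was near that of all genes. Timm10 and Tomm20 held the E-box as well.
Mtx2 (chr2:74825757-74825811, plus strand): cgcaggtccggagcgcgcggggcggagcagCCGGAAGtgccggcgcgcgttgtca
Grpel1 (chr5:36464951-36465017, plus strand): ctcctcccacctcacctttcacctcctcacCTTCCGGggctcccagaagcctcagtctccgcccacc
Timm10 (chr2:84826975-84827020, plus strand): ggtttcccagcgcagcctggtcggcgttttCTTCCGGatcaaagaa
Timm23 (chr14:32201902-32201968, minus strand): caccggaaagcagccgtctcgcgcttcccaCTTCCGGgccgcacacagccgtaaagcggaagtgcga
Tomm22 (chr15:79670791-79670860, plus strand): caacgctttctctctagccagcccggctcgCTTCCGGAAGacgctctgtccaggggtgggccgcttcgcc
Tomm70a (chr16:57121604-57121713, plus strand): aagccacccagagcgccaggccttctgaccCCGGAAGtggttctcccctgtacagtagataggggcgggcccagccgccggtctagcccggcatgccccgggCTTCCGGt
Timm8a1 (chrX:134541871-134541920, minus strand): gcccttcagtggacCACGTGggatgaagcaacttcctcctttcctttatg
Timm9 (chr12:71136698-71136763, minus strand): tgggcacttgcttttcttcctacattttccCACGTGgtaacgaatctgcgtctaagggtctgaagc

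Genes that work with the import machinery but fall outside the rule were counted in the same fit, in which 0 of them had an adjusted p under 0.05. Over all genes tested 50.3% lay above 0 and 2.27% were higher at the unadjusted level. Of 19 tested partners (motor subunits, insertases, later proteases and matrix chaperones) 16 lay above 0, with a median of 0.13, and 1 passed at the unadjusted level (5.26%), Mtch2 (0.30 ± 0.10), an outer membrane insertase. Its relative Mtch1 was lower without overlap, -0.16 ± 0.08. Of the 19 partners 4 were higher without overlap and 1 was lower, where 4.53% of all genes were higher and 5.95% lower. Among the 4 were Mtch2, the motor J-protein Dnajc19 (0.24 ± 0.11) and Dnajc15 (0.38 ± 0.18, or 0.18 without rAAV-Lmo3 1). Of 11 tested twin-cysteine proteins, the class that Chchd4 folds, 10 lay above 0 with a median of 0.19, and 4 passed at the unadjusted level (36.4%). These were Chchd10 (1.06 ± 0.27), Cmc1 (0.29 ± 0.09), Ndufa8 (0.29 ± 0.11) and Cox19 (0.28 ± 0.11). For the 9 carriers of the TIM22 route 8 lay above 0 with a median of 0.28, and 4 passed (44.4%), the citrate carrier Slc25a1 (0.65 ± 0.12), the carnitine-acylcarnitine carrier Slc25a20 (0.64 ± 0.18), the dicarboxylate carrier Slc25a10 (0.50 ± 0.15) and the ADP/ATP carrier Slc25a5 (0.37 ± 0.14). The median of the 9 carriers was 0.43 without rAAV-Lmo3 1 and 0.18 without rAAV-YFP 2. Slc25a1 was highest on rAAV-Lmo3 1, whereas that array was the lowest rAAV-Lmo3 array for the other 3, and Slc25a5 was at 0.23 without rAAV-YFP 2. Of 6 tested MICOS genes, which shape cristae and contact SAM, 5 lay above 0 with a median of 0.19, and Chchd3 (0.40 ± 0.11) passed. Without rAAV-Lmo3 1 that median was 0.04 (4 of 6 above 0). Then it was 0.03 for the import partners (12 of 19) and 0.16 for the twin-cysteine proteins (8 of 11).

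Markers of other cell types varied between the arrays as well. The 16 macrophage markers, all of them tested, summed to intensities of 20484 to 45555 on the rAAV-YFP arrays and 25061 to 44708 on the rAAV-Lmo3 arrays, with 15 of 16 above 0 and 0 passing. Their median difference was 0.13, or 0.47 without rAAV-Lmo3 1 and -0.11 without rAAV-YFP 2. The lowest sum in each group came from the arrays that stood apart, rAAV-YFP 2 and rAAV-Lmo3 1. The import averages of those arrays were -0.09, the middle value of the controls, and 0.24, the highest of all arrays. The 11 adipocyte markers summed to 68628 to 82482 in controls and 65035 to 80724 in rAAV-Lmo3 tissue, with 3 of 11 above 0. Both highest sums again came from rAAV-YFP 2 and rAAV-Lmo3 1. The median difference of the adipocyte markers was -0.04, or -0.17 without rAAV-Lmo3 1 and 0.05 without rAAV-YFP 2. Of the 11 only Lep was lower without overlap (-0.28 ± 0.12), as were 5.95% of all genes tested. The 7 brown fat and muscle markers summed to 951 to 1473 in controls and 992 to 1520 in rAAV-Lmo3 tissue. The highest sum of each group was once more on rAAV-YFP 2 and rAAV-Lmo3 1. There the muscle gene Myh4 read 229 and 226 (54 to 92 on the other arrays) and Ckm 373 and 315 (204 to 233). Mylpf read 165 and 145 there (81 to 101 on the others), whereas Acta1 read 491 and 450 there and 465 on rAAV-Lmo3 2. Of the 7 markers Ucp1, Cidea, Dio2, Myh4 and Mylpf were under the limit for dim genes. Below that limit Cidea read 83, 79 and 62 in controls and 191, 87 and 113 in rAAV-Lmo3 tissue, and Ucp1, the uncoupling protein of brown fat, read 84, 77 and 74 against 133, 94 and 90. Neither overlapped between the groups, which without the filter held for 3.41% of all genes on the higher side and 4.92% on the lower. Both were highest on rAAV-Lmo3 1, as most import genes were. Dio2, from the same list and also dim, read 62, 59 and 69 against 60, 84 and 77. Its groups overlapped, and rAAV-Lmo3 1 was the lowest of its group. The other lists were 7 fibroblast markers (3 above 0; sums 12358 to 15807 in controls and 13201 to 16326 in rAAV-Lmo3 tissue) and 7 endothelial markers (1 above 0; 9427 to 12151 and 8503 to 10434). Mesothelial markers had 0 of 5 tested above 0 (sums over all 6 on the array, 839 to 2063 and 798 to 1113). Of the 7 lymphocyte markers only Cd3e, at -0.42 ± 0.17 the lower of the 2 tested, passed at the unadjusted level (699 to 1120 and 659 to 773). The part of cell makeup in the import gene differences was not tested.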

How the data were processed

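Each pool of eWAT RNA was measured on an Affymetrix mouse Gene 1.0 ST array. The deposited intensity values are RMA summaries (background correction, quantile normalization, median polish) that the authors made in Affymetrix Expression Console 1.1, given linearly and rounded to whole numbers. Log2 was taken here. Arrays give no counts, so their number limits the precision. Each of the 19938 genes with a single annotated symbol was represented by its brightest probe set. The dimmest 40% (7975 genes) were left out, and 11963 genes were fitted with limma 3.58.1 in R 4.3.3 (two-sided, Benjamini-Hochberg over all genes tested, threshold 0.05). Errors are SEs of the moderated difference unless given as SD. Those of the ratios of the 7 pairs are unmoderated SEs from the variances within each group. The steps were tested on simulated data with independent noise and changes larger than most import gene differences. No shift shared by the genes of an array was simulated, so that test does not cover the pattern of rAAV-Lmo3 1. Groups and replicate numbers follow the labels, which do not say whether pools share litter or batch, so the tests cover only variation among these pools. The import genes, partner and marker lists were chosen with earlier results of these data known, and the 7 pairs and 5 motifs after the values were seen. Values on every array were given for members with an unadjusted p under 0.05, for those whose groups did not overlap, and for a core subunit of each complex. Pmpcb is given per array outside this rule, chosen after its values were seen. The alternatives were array centring, a second quantile normalization, array weights, a trended robust prior, a replicate block, left-out arrays, other filters, the mean over probe sets and the methods' t-test.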

Additional observations from a re-analysis of the deposited data

How the results depend on the processing

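Adjusted calls were 0 under all 16 alternatives, for the import genes and for all genes tested, where the smallest adjusted p was 0.064, without both arrays that stood apart. The smallest adjusted p of a member was 0.602, with array weights, and the largest such minimum was 1. The median difference of the import genes stayed between 0.10 (without rAAV-Lmo3 1) and 0.23 (without rAAV-YFP 3), and 23 to 30 members lay above 0, the 23 being those of 26 that remained with the dimmest 60% left out. The 4 members higher at the unadjusted level became 1 with the dimmest 60% left out, where Timm8a1 and Timm9 are no longer tested, and 2 without both arrays that stood apart. They ranged from 1 (without rAAV-Lmo3 3) to 7 (without rAAV-Lmo3 2) when single arrays were left out, with 2 each without rAAV-YFP 1 and rAAV-YFP 2. Members higher with groups that did not overlap were 10 with array centring (4.79% of all genes; Timm10, Timm44 and Tomm70a then overlapped), 10 with the second quantile normalization (4.98%) and 8 of 26 with the dimmest 60% left out (5.33%). With single arrays left out they ranged from 11 to 17 (17 without rAAV-YFP 3, with 12.6% of all genes) and from 0 to 2 on the lower side, and 2 were lower without both arrays that stood apart. Over all genes, the count at the unadjusted level ranged from 122 to 404 higher and from 140 to 339 lower when single arrays were left out; it was lowest without rAAV-YFP 2 (122 and 141) and without rAAV-Lmo3 3 (143 and 140), and 167 were higher without rAAV-YFP 1. Without a filter on dim genes 458 of 19938 genes were lower, which is a share of 2.3%, against 2.4% in the main fit. Pmpca turned to -0.013 without both arrays that stood apart. Samm50 ranged from -0.207 (without both arrays that stood apart) to 0.077 (without rAAV-Lmo3 2), and was at -0.202 without rAAV-Lmo3 1. The cause of these shifts was not tested. With the replicate block 4 members were higher at the unadjusted level, Chchd4 in place of Grpel1. Of all genes 216 were then higher and 237 lower. Deviations of same-numbered arrays correlated at -0.55, -0.40 and 0.26, so no common pairing by number was seen. Between arrays of unlike number the correlations ran from -0.71 (rAAV-YFP 2 with rAAV-Lmo3 3) to 0.68 (rAAV-YFP 2 with rAAV-Lmo3 1). For rAAV-YFP 1 with rAAV-Lmo3 3 the value was 0.64. With 3 arrays per group these correlations cannot tell whether same-numbered pools shared litter or batch.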

Other observations

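The probe set shared by Timm10b and Dnhd1 read 95, 99 and 97 in controls and 106, 99 and 95 in rAAV-Lmo3 tissue, a log2 difference of 0.04, below the intensity limit for tested genes. Averaged over the 9 carriers, the centred log2 intensity was -0.10, -0.34 and -0.02 in controls and 0.04, 0.12 and 0.28 in rAAV-Lmo3 tissue, so rAAV-Lmo3 1 was the lowest of its group in this average, where it was the highest in that of the import genes. For the twin-cysteine proteins the averages were -0.17, -0.08 and -0.13 against 0.30, -0.06 and 0.15, and rAAV-Lmo3 1 was again the highest.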
